A study of Mus musculus with 22 samples.

Results

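The Slc25 genes encode the mitochondrial carrier family, whose members were taken as every array probe with a platform gene symbol of Slc25a followed by a number. The rule found 57 probes of 39 genes among the 25697 probes and 16593 gene symbols of the array. Of these genes, 26 had 1 probe, 8 had 2 and 5 had 3. Mitochondrial carriers sit mostly in the inner mitochondrial membrane and exchange nucleotides, phosphate, amino acids, carboxylates, acylcarnitines and cofactors between matrix and cytosol. Many substrates are served by several paralogues, and tissues are known to differ in the paralogue they use. Together with soluble enzymes the aspartate/glutamate and oxoglutarate carriers form the malate-aspartate shuttle, which moves reducing equivalents into mitochondria.

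Total RNA was hybridised to 22 Illumina bead arrays. Testis came from 4 Sgms1 mutant and 4 wild-type C57BL/6J mice aged 27 weeks. Brain and muscle came from the same 4 Sgms1 mutant and 3 wild-type C57BL/6J mice aged 17 weeks, so that 15 mice were used, and the series speaks of male mice. Sgms1 encodes sphingomyelin synthase 1, which makes sphingomyelin from ceramide. The labels call the mice mutant without naming the allele or the muscle. Tissue and age cannot be told apart between testis and the other tissues. In tissue RNA, fewer cells of a type and less RNA per cell cannot be told apart either.

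Levels are background-corrected, quantile-normalized log2 intensities, normalized per tissue for genotype and over all 22 arrays for tissue. Levels of different probes are not comparable, since probes differ in brightness. Median raw intensity per array was 93.7 to 107 in testis, 112 to 143 in brain and 133 to 143 in muscle. Testis wild type 2 was the lowest, with a detection p below 0.05 for 41.1% of all probes and for 26 Slc25 probes. The other testis arrays had 44.6% to 47.1% and 29 to 35. All 7 germ cell markers were called higher in testis than in brain and than in muscle, and all 8 skeletal muscle markers were called lower in testis and in brain than in muscle. Of 7 brain markers 5 were detected in brain, while the probes of Snap25 and Nefl were not. The mutated gene was examined in each library. In brain Sgms1 was at 6.59, 8.14, 6.31 and 6.57 in mutants, against 8.33, 8.07 and 6.64 in wild types. The library labelled brain mutant 2 and the library labelled brain wild type 3 therefore went against their labels, and the brain calls are also given without both. In muscle Sgms1 was at 7.21, 7.50, 7.30 and 7.13 in mutants and at 7.77, 8.09 and 8.12 in wild types, a difference of -0.70 (SE 0.13, limma adjusted p = 0.0871) without overlap. In testis the difference was -0.62 (SE 0.27, limma adjusted p = 0.834), and the genotypes overlapped.

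Most carriers with a signal had one in every tissue. Probes with a detection p below 0.05 on 3 or more arrays of a tissue are called kept there. This held for 32 Slc25 probes of 26 genes in testis, 40 of 31 in brain and 36 of 28 in muscle. In all tissues 30 probes of 24 genes were kept, or 52.6% of Slc25 probes against 34.3% of all probes. A further 16 probes were kept in no tissue, and 7 genes had no probe kept: Slc25a13, Slc25a21, Slc25a22, Slc25a31, Slc25a40, Slc25a48 and Slc25a53. Slc25a31, in mice the ADP/ATP carrier of male germ cells, was detected by neither probe on any array, testis included. Non-detection does not show that a transcript was absent, since the probes of the brain markers Snap25 and Nefl were not detected in brain either. Slc25a4, the muscle-type ADP/ATP carrier, was not analysed here.

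Tissues were compared over 8 testis, 7 brain and 7 muscle arrays, with both genotypes weighted equally. A probe was called when its limma adjusted p over all probes was under 0.05, the difference was at least 2-fold and the higher tissue detected it on at least 3 arrays. Testis had 9 Slc25 probes higher than brain (15.8%, against 15.1% of all probes) and 15 lower (26.3%, against 17.5%). Testis had 7 higher than muscle (12.3%, against 14%) and 16 lower (28.1%, against 16.6%). Brain had 4 higher than muscle (7.02%, against 11.1%) and 14 lower (24.6%, against 11.2%). Called either way were 24 of 57 Slc25 probes for testis over brain (against 32.6% of all probes), 23 for testis over muscle (against 30.6%) and 18 for brain over muscle (against 22.3%). The median log2 difference over the Slc25 probes was 0.01, -0.17 and -0.23 in the same order, against 0.02, -0.03 and -0.06 over all probes. Without the 2 doubtful brain libraries, 25 Slc25 probes were called between testis and brain and 18 between brain and muscle. The 3 comparisons share arrays and are given side by side. Higher calls were near the share of all probes in testis, and lower calls were above it in each pair. Over the probes kept in both tissues, the median for testis over brain was 0.26 for Slc25 probes and -0.04 for all probes. It was -0.36 and -0.35 for testis over muscle, and -0.81 and -0.29 for brain over muscle. Slc25 probes kept in both were thus not shifted lower in testis than in brain.

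These splits moved with the scaling. With median scaling in place of quantile normalization, testis had 3 Slc25 probes higher (against 8.94% of all probes) and 19 lower than brain (against 29.2%). Against muscle, testis had 5 higher (against 9.52%) and 16 lower (against 18.0%). Brain then had 9 higher (against 19.4% of all probes) and 6 lower than muscle (against 5.74%). Of the calls over all probes, 23.4% were then higher for testis over brain (46.3% with quantile normalization), 34.6% for testis over muscle (45.7%) and 77.2% for brain over muscle (49.7%). The median difference over all probes was 0.27 for testis over brain, 0.01 for testis over muscle and -0.31 for brain over muscle under median scaling, and -1.18, -0.69 and 0.44 over the probes kept in both tissues of a pair. Over the Slc25 probes kept in both tissues it was -0.83, -0.96 and -0.26 in the same order. In brain against muscle, 24.6% of Slc25 probes were lower, against 11.2% of all probes, under quantile normalization. Under median scaling most calls were higher in brain, but this held for a smaller share of Slc25 calls (60%) than of all calls (77.2%).

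**Figure D1:**
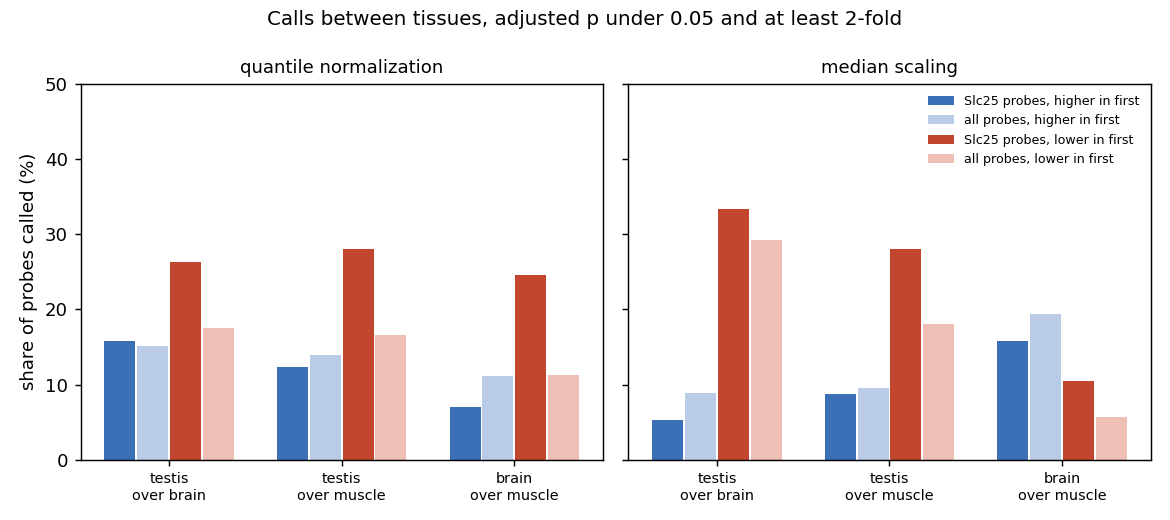
Share of probes (percent, from 0) called higher or lower in the first-named tissue, for the 57 Slc25 probes (dark bars) and all 25697 probes (pale bars), under quantile normalization (left) and median scaling (right). Slc25 probes lower in the first tissue exceed the share of all probes in each pair, and under median scaling brain has more Slc25 probes higher than muscle than lower.

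The aspartate and glutamate carriers showed the largest differences between tissues. Slc25a12, the calcium-regulated aspartate/glutamate carrier of the malate-aspartate shuttle, ranged from 4.17 to 5.04 (median 4.54) in testis, from 9.05 to 9.35 (median 9.11) in brain and from 9.93 to 10.29 (median 10.13) in muscle. No tissue overlapped another, and only 2 of 8 testis arrays detected it. Where fewer than 3 arrays of the lower tissue detected a probe, levels below the floor of an array, its lowest signal that was detected, were raised to that floor and the fold is given as a bound. The limma test used the levels before raising, so a p-value beside a bound does not test the bound. Slc25a12 was at least 19.6-fold lower in testis than in brain (limma adjusted p = 5.13e-20) and at least 38.1-fold lower than in muscle (limma adjusted p = 2.75e-21). Its paralogue Slc25a13, known from liver, was detected on 0 testis, 2 brain and 0 muscle arrays.

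Slc25a18, a glutamate carrier known from astrocytes, had another order. It ranged from 7.31 to 7.90 (median 7.66) in testis, from 10.34 to 10.56 (median 10.41) in brain and from 4.26 to 4.79 (median 4.50) in muscle, where no array detected it. Brain stood highest and muscle at background, with no overlap. Slc25a18 was at least 43.7-fold higher in brain than in muscle (limma adjusted p = 3.11e-21) and at least 6.36-fold higher in testis than in muscle. It was 6.87-fold lower in testis than in brain (-2.78, SE 0.09). The other glutamate carrier, Slc25a22, was detected on 1 of the 22 arrays by its only probe, which does not show that its transcript was absent.

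The oxoglutarate carrier and the shuttle enzymes were also low in testis. Slc25a11, which exchanges oxoglutarate for malate, ranged at its brightest probe from 6.79 to 7.60 (median 7.40) in testis, from 8.25 to 8.50 (median 8.30) in brain and from 10.16 to 10.52 (median 10.32) in muscle. Its 3 probes were 6.34-fold, 18.6-fold and 7.89-fold lower in testis than in muscle and 3.50-fold, 5.02-fold and 3.95-fold lower in brain than in muscle. Against brain, testis was 3.72-fold lower by the probe ILMN_3010109, while the other probes missed the 2-fold minimum. All 4 shuttle enzymes measured, Got1, Got2, Mdh1 and Mdh2, were called lower in testis than in brain and than in muscle. For the mitochondrial pair, testis over brain was -2.15 for Got2 and -3.75 for Mdh2 on the log2 scale, and testis over muscle -2.49 and -5.37. Got1, detected on no testis array, was at least 4.22-fold lower in testis than in brain and at least 5.13-fold lower than in muscle. Mdh1, detected on 1 of 8 testis arrays, was at least 8.18-fold and at least 7.03-fold lower. Brain had 1 of the 4, the mitochondrial malate dehydrogenase Mdh2, lower than muscle (-1.62, SE 0.20).

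Among nucleotide and phosphate carriers, Slc25a5, the ADP/ATP carrier of proliferating and non-muscle cells, was highest in brain. It ranged from 9.73 to 10.72 (median 10.13) in testis, from 11.92 to 12.20 (median 11.94) in brain and from 10.12 to 10.73 (median 10.25) in muscle. Testis and muscle overlapped and missed the call (-0.17, SE 0.11, limma adjusted p = 0.202). It was 3.56-fold lower in testis than in brain and 3.16-fold higher in brain than in muscle.

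Slc25a3, the phosphate carrier that supplies ATP synthase, was lowest in testis and highest in muscle by both probes. The brighter probe ranged from 8.62 to 9.48 (median 8.95) in testis, from 11.12 to 11.42 (median 11.31) in brain and from 11.87 to 12.07 (median 11.95) in muscle. The other probe, ILMN_2960467, ranged from 5.27 to 6.29 (median 5.97) in testis, from 8.24 to 8.49 (median 8.32) in brain and from 9.91 to 10.23 (median 10.00) in muscle. The probes gave unequal differences. Brain was 1.57-fold lower than muscle by the brighter probe, under the 2-fold minimum, and 3.21-fold lower by the other. Testis was 7.86-fold and 17.5-fold lower than muscle. Slc25a3 transcripts are known to be spliced into a form of heart and skeletal muscle and a form of other tissues, and the place of each probe in the transcript was not known here.

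The ATP-Mg/phosphate carriers set the matrix adenine nucleotide pool and differed by paralogue. Slc25a41, a short form without the calcium-binding domain, ranged from 5.67 to 6.75 (median 6.37) in testis. It was detected on all 8 testis arrays and on no brain or muscle array, and it was the 1 Slc25 probe kept in testis alone. It was at least 3.74-fold higher in testis than in brain and at least 2.65-fold higher than in muscle.

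Slc25a25, a calcium-regulated form, ranged from 4.76 to 5.94 (median 5.18) in testis, from 7.85 to 8.09 (median 8.01) in brain and from 6.41 to 8.93 (median 7.18) in muscle. It was 6.69-fold lower in testis than in brain and 4.58-fold lower than in muscle, while brain and muscle overlapped. Slc25a24 was kept in brain alone by 2 of 3 probes, each detected on 5 brain arrays and within 4.35 to 4.78 there.

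Testis carried the highest level of several other carriers. Slc25a45, a relative of the carnitine carrier, had the largest gap of any Slc25 probe that was highest in testis. It ranged from 8.65 to 9.16 (median 8.91) in testis, from 5.38 to 5.72 (median 5.61) in brain and from 4.93 to 6.44 (median 6.02) in muscle. Testis stood above every other array, while brain and muscle overlapped. It was 10.2-fold higher in testis than in brain (3.35, SE 0.17, limma adjusted p = 2.31e-13) and 8.28-fold higher than in muscle (3.05, SE 0.17, limma adjusted p = 1.19e-12).

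Slc25a30, an uncoupling protein relative first described in kidney, ranged from 7.61 to 8.49 (median 7.96) in testis, from 4.91 to 5.19 (median 5.11) in brain and from 4.87 to 6.38 (median 6.22) in muscle. It was 7.30-fold higher in testis than in brain and 3.88-fold higher than in muscle. Slc25a33, which carries pyrimidine nucleotides, ranged from 9.74 to 10.62 (median 10.40) in testis, from 8.79 to 9.13 (median 8.98) in brain and from 7.67 to 8.41 (median 8.19) in muscle. The tissues did not overlap. It was 2.61-fold higher in testis than in brain, a difference that was -0.06 under median scaling, and 4.90-fold higher than in muscle.

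Slc25a10, the dicarboxylate carrier, ranged from 7.57 to 8.11 (median 7.82) in testis, from 5.60 to 5.95 (median 5.79) in brain and from 5.70 to 7.66 (median 5.95) in muscle. It was 4.18-fold higher in testis than in brain and 2.89-fold higher than in muscle, with 1 muscle array reaching the testis range. Median scaling gave 0.59 for testis over brain and 0.97 for testis over muscle on the log2 scale, below the 2-fold minimum. Wild-type arrays alone gave 0.96 for testis over muscle. Slc25a39, a glutathione carrier, ranged from 8.44 to 8.85 (median 8.71) in testis, from 7.55 to 7.78 (median 7.65) in brain and from 7.43 to 7.90 (median 7.65) in muscle. It was called 2.01-fold higher in testis than in muscle, at the edge of the minimum, and just missed the call against brain. Leaving out single libraries ended its call against muscle in 6 cases.

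In brain the other leading members were uncoupling protein relatives. Slc25a14 ranged from 4.39 to 5.89 (median 5.38) in testis, from 8.28 to 8.67 (median 8.43) in brain and from 5.50 to 5.94 (median 5.69) in muscle. It was 8.82-fold lower in testis than in brain and 6.79-fold higher in brain than in muscle. Slc25a27 ranged from 6.00 to 6.45 (median 6.25) in brain and was detected on 0 of 8 testis and 1 of 7 muscle arrays. It was at least 2.61-fold lower in testis than in brain and at least 2.37-fold higher in brain than in muscle. Its second probe was detected on no array. Thus Slc25a30 stood highest in testis, and Slc25a14 and Slc25a27 in brain. The peroxisomal carrier Slc25a17 and the branched-chain amino acid carrier Slc25a44 also had every brain array above all others, at differences from muscle of 0.78 and 0.92 on the log2 scale, under the 2-fold minimum.

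Muscle stood above all other arrays for the most members under quantile normalization. Probes are counted here, and Slc25a11, Slc25a20 and Slc25a3 entered the muscle count by several probes. Every muscle array lay above every testis and brain array for 15 Slc25 probes (of 57, against 11.9% of all probes), every testis array above all others for 6 (against 12.6%) and every brain array above all others for 6 (against 12.7%). Every testis array lay below all others for 11 probes (against 12.3%), every brain array for 5 (against 6.68%) and every muscle array for 2, Slc25a18 and Slc25a33 (against 4.99%). Members of fatty acid entry and cofactor supply were among those highest in muscle.

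Slc25a20, the carnitine/acylcarnitine carrier of fatty acid oxidation, ranged from 9.06 to 9.36 (median 9.22) in testis, from 7.48 to 7.84 (median 7.68) in brain and from 10.30 to 10.75 (median 10.68) in muscle. No tissue overlapped another. It was 7.63-fold lower in brain than in muscle (-2.93, SE 0.08, limma adjusted p = 1.16e-17) and 2.65-fold lower in testis than in muscle. Testis was 2.88-fold higher than brain, a difference that was -0.0034 under median scaling. A second probe, ILMN_3061070, gave the same order of testis and brain below muscle (3.04-fold and 4.42-fold lower), and the third was detected on no array. Its relative Slc25a47 ranged from 4.92 to 5.84 (median 5.69) in testis, from 4.78 to 5.17 (median 4.97) in brain and from 6.18 to 6.72 (median 6.62) in muscle. It was 2.85-fold lower in brain than in muscle.

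Slc25a16 and Slc25a42, carriers linked to coenzyme A, followed 1 pattern. Slc25a16 ranged from 5.58 to 6.57 (median 5.89) in testis, from 7.68 to 8.29 (median 7.76) in brain and from 8.86 to 9.06 (median 8.91) in muscle, and was 7.99-fold lower in testis than in muscle. Slc25a42 ranged from 4.27 to 5.09 (median 4.62) in testis, where 1 of 8 arrays detected it, from 6.42 to 6.79 (median 6.66) in brain and from 6.80 to 7.59 (median 7.31) in muscle, and was at least 5.17-fold lower in testis than in muscle. Both were lowest in testis and highest in muscle without overlap. The ornithine carrier Slc25a15 ranged at its brighter probe from 4.29 to 5.45 (median 4.87) in testis, from 6.36 to 6.74 (median 6.54) in brain and from 7.51 to 7.87 (median 7.71) in muscle. It was 3.37-fold lower in testis than in brain, 7.59-fold lower in testis than in muscle and 2.25-fold lower in brain than in muscle. The other Slc25a15 probe missed the 2-fold minimum in each pair.

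The remaining members highest in muscle were closer to the threshold. Slc25a34, an orphan carrier, was 2.47-fold lower in testis and 2.35-fold lower in brain than in muscle at 1 probe, and its other probe missed the minimum. Slc25a32, linked to folate and flavin transport, was at least 2.17-fold lower in testis, where 1 of 8 arrays detected it, and 2.04-fold lower in brain than in muscle. The call in brain was lost on leaving out any of 5 single libraries or both doubtful brain libraries. Slc25a36, the other pyrimidine nucleotide carrier, ranged from 6.56 to 7.40 (median 6.97) in testis, from 6.32 to 7.04 (median 6.77) in brain and from 7.71 to 8.10 (median 7.92) in muscle. It was 2.29-fold lower in brain than in muscle. Its paralogue Slc25a33 had the opposite order, 1.88-fold higher in brain than in muscle, but this was under the 2-fold minimum and not called. Under median scaling 8 of the probes called lower in brain than in muscle missed the call. They included Slc25a15 (-0.27), Slc25a34 (-0.48), Slc25a35 (-0.70), Slc25a36 (-0.31, limma adjusted p = 0.0563) and Slc25a47 (-0.85). The others were Slc25a11 at ILMN_2600053 (-0.98), Slc25a16 (-0.28) and Slc25a32 (-0.38), and all 8 were still lower in brain. Slc25a32 then also missed it for testis over muscle (-0.96).

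Brain was lowest for a few members. Slc25a26, which imports S-adenosylmethionine, ranged from 7.93 to 8.36 (median 8.16) in testis, from 6.16 to 6.40 (median 6.32) in brain and from 8.25 to 8.45 (median 8.28) in muscle. It was 3.67-fold higher in testis than in brain and 4.13-fold lower in brain than in muscle. The orphan carrier Slc25a35 was 3.07-fold higher in testis than in brain and 2.33-fold lower in brain than in muscle. The iron carrier Slc25a28 was 2.31-fold higher in testis than in brain, a difference that was -0.28 under median scaling. For testis against brain, Slc25a26 and Slc25a35 missed the 2-fold minimum under median scaling, at 0.34 and 0.74 on the log2 scale.

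Probes of Slc25a38, the glycine carrier of haem synthesis, disagreed. Testis over brain was 0.67 (SE 0.06) at the brightest probe and 0.86 (SE 0.09) at ILMN_1256420, while at ILMN_2946901, which 2 of 8 testis arrays detected, testis was at least 1.97-fold lower than brain. No direction is given for this gene. The citrate carrier Slc25a1, whose export of citrate feeds fatty acid synthesis, was 1.78-fold higher in testis than in brain and 1.53-fold higher than in muscle, under the 2-fold minimum.

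**Figure D2:**
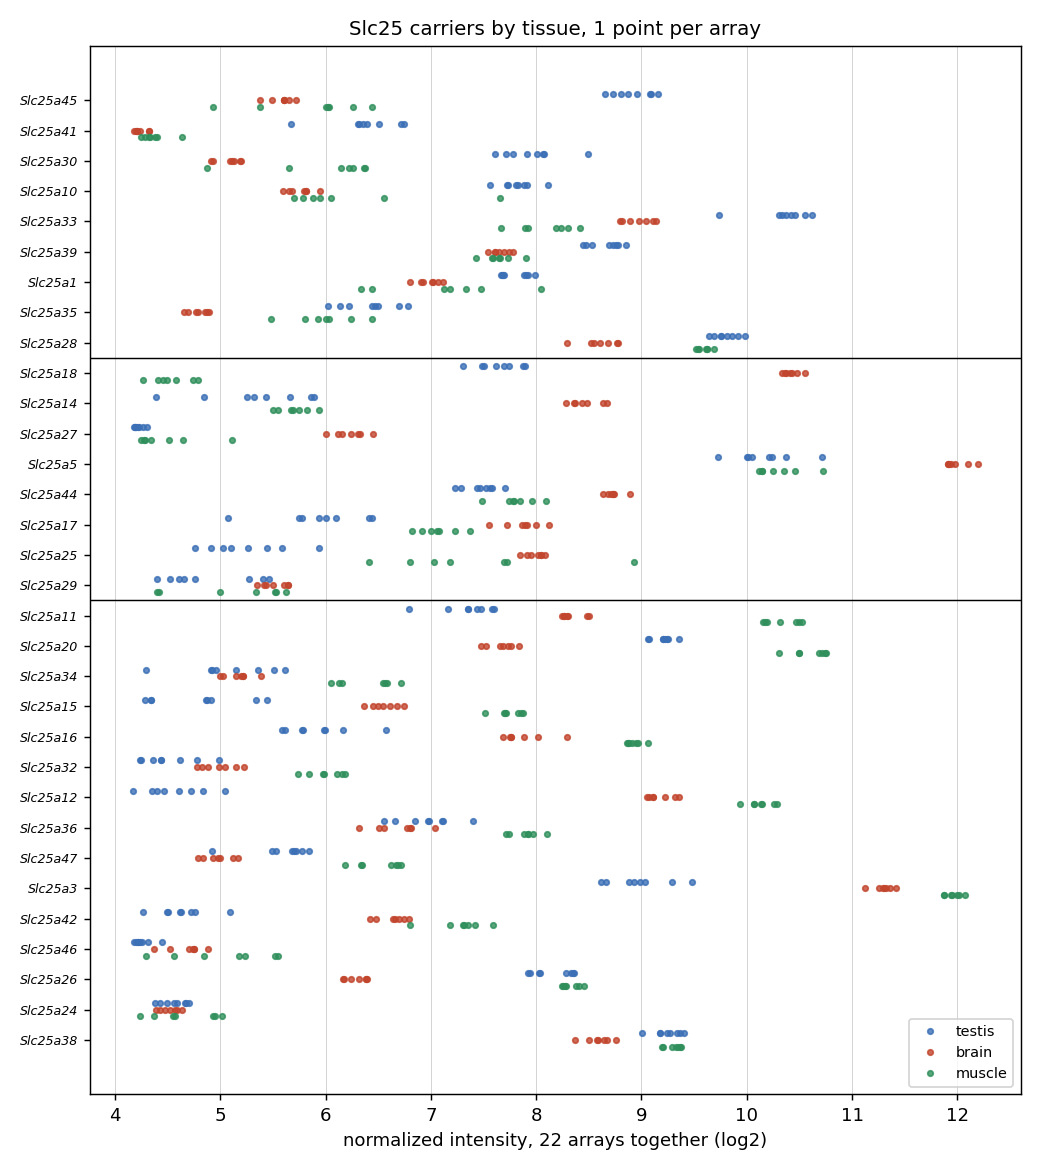
Normalized log2 intensity of 1 probe per gene for the 32 Slc25 genes kept in a tissue, with 1 point for each of 22 arrays coloured by tissue. Genes are grouped by the tissue of highest mean (testis, brain, muscle from the top) and ordered by the gap to the next tissue. Slc25a12 lies at 4.17 to 5.04 in testis, far below brain and muscle, and levels of different genes are not comparable.

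Upstream sequences are shown for 4 members with contrasting tissue patterns, which are not in each case those with the largest gap. Slc25a34 had rank 7 by gap among the probes called highest in muscle. Of the 39 genes, 32 were found in the RefSeq promoter table (GRCm38.p6). The median number of CpG pairs in the 250 bases before the start was 14 over these 32 and 6 over all 32851 promoters. The sequences below run 5′ to 3′ on the gene's strand, and capitals mark CpG pairs. They belong to Slc25a45 (highest in testis, chr19:5877572-5877821, plus strand), Slc25a18 (highest in brain, chr6:120773518-120773767, plus strand), Slc25a34 (highest in muscle by 1 of its probes, chr4:141623835-141624084, minus strand) and Slc25a3 (lowest in testis and highest in muscle, chr10:91123968-91124217, minus strand).
Slc25a45: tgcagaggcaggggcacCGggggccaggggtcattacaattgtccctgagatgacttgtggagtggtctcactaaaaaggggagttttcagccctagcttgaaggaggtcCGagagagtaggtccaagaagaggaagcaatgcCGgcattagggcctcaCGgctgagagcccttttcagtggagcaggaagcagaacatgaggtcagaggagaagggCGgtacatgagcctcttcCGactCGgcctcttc
Slc25a18: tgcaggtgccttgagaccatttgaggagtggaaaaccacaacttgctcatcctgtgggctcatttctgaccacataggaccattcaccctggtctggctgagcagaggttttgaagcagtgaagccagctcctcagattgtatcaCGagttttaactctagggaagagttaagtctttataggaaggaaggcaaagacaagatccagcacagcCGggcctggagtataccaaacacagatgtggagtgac
Slc25a34: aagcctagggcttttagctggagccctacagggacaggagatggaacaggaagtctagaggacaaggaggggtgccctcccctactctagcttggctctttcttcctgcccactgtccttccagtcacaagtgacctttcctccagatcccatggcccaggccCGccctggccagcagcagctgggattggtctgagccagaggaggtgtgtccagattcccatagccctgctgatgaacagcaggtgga
Slc25a3: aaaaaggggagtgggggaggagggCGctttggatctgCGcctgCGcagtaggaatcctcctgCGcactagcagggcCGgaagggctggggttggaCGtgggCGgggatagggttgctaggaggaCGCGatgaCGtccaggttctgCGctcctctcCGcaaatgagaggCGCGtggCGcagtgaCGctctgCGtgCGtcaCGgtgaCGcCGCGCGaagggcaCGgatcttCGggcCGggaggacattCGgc
Slc25a3 had 27 CpG pairs, against 7 in Slc25a45, 2 in Slc25a18 and 1 in Slc25a34. Letter strings of 3 motifs were searched on both strands. The GC box GGGCGG was in 23 of the 32 carrier promoters and in 32.7% of all promoters. The estrogen-related receptor string AAGGTCA was in 1, that of Slc25a34, and in 4.08% of all promoters. The cyclic AMP response element TGACGTCA was in 1, that of Slc25a36, and in 1.55% of all promoters. A match describes letters in this window only.

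Carriers of the same family with other names and other mitochondrial transport genes were compared in the same way. Ucp3, the muscle uncoupling protein, was detected on no testis or brain array, and was at least 9.99-fold lower in testis and at least 13.0-fold lower in brain than in muscle. Mtch1 was lower in testis than in brain (-2.22, SE 0.12) and higher in brain than in muscle (1.77, SE 0.13). Mtch2 was higher in testis than in brain (2.12, SE 0.07) and lower in brain than in muscle (-1.10, SE 0.07). Of 12 genes of the import pathway for carriers, testis had 1 higher (against 15.1% of all probes) and 5 lower than brain (against 17.5%). Testis had 1 higher (against 14%) and 6 lower than muscle (against 16.6%). Brain had 0 higher (against 11.1%) and 1 lower than muscle (against 11.2%). The chaperone subunit Timm8a1 was at -2.97 (SE 0.15) for testis over brain. Of 9 other transport genes, testis had 2 higher and 6 lower than brain, and the calcium uniporter Mcu was the highest of these at 4.48 (SE 0.08). Against muscle, testis had 1 of the 9 higher and 4 lower, and brain had 3 higher and 4 lower. The shares of all probes are those given for the import genes.

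Genotype was then compared within each tissue. No Slc25 probe passed an adjusted p of 0.05 in limma, among 32 kept in testis (against 0% of all probes passing), 40 in brain (against 0%) and 36 in muscle (against 0.105%). At an unadjusted p under 0.05 there was 1 member in testis (against 5.53% of all probes), 1 in brain (against 3.85%) and 5 in muscle (against 9.18%). The median difference over members was 0.01 in testis, -0.01 in brain and -0.06 in muscle, against 0.02, 0.00 and 0.01 over all probes tested. Mutants and wild types did not overlap for 2 of 32 members in testis (6.25%, against 3.42% of all probes), 5 of 40 in brain (12.5%, against 4.44%) and 3 of 36 in muscle (8.33%, against 8.88%). Mutants lay above all wild types for 1 member in testis (against 1.7% of all probes), 3 in brain (against 2.25%) and 1 in muscle (against 4.4%). They lay below all wild types for 1 in testis (against 1.72%), 2 in brain (against 2.19%) and 2 in muscle (against 4.48%). The members of smallest p are described next as values that did not pass.

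In testis Slc25a16 was at 4.95, 4.94, 4.83 and 4.85 in mutants, against 5.19, 5.48, 5.07 and 5.07 in wild types. The groups did not overlap, and the difference was -0.31 (SE 0.13, limma adjusted p = 0.834). Slc25a10 was at 6.69, 6.89, 6.66 and 6.61 in mutants and at 6.59, 6.50, 6.51 and 6.34 in wild types, a difference of 0.23 (SE 0.12, limma adjusted p = 0.834) without overlap. Slc25a20 at ILMN_3061070 was at 4.62, 4.85, 4.44 and 4.39 in mutants, against 4.87, 4.60, 5.13 and 4.94 in wild types. These groups overlapped (-0.31, SE 0.15, limma adjusted p = 0.834), and its brighter probe differed by -0.04 (SE 0.12).

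In brain Slc25a46, which takes part in mitochondrial dynamics at the outer membrane, was at 4.45, 4.72, 5.07 and 5.15 in mutants, against 5.39, 5.16 and 5.16 in wild types. The difference was -0.39 (SE 0.16, limma adjusted p = 1.00), and mutants lay just below wild types. Slc25a42 was at 7.61, 7.69, 7.65 and 7.74 in mutants and at 7.42, 7.58 and 7.36 in wild types, a difference of 0.22 (SE 0.10, limma adjusted p = 1.00). Slc25a26 was at 7.32, 7.25, 7.33 and 7.32 in mutants, against 7.09, 7.17 and 7.08 in wild types (0.19, SE 0.09, limma adjusted p = 1.00). None of the 3 groups overlapped. Without both libraries that went against their labels, the differences were -0.39, 0.16 and 0.19, and no Slc25 probe passed. The 3 mutants and 2 wild types left had 0 of 40 members at an unadjusted p under 0.05 (against 5.91% of all probes) and 11 without overlap (against 21%). Pituitary hormone transcripts were high in brain wild types 2 and 3. Growth hormone (Gh) was at 5.72, 5.29, 5.80 and 4.29 in mutants, against 4.81, 14.02 and 12.17 in wild types. The summed level of the 4 pituitary markers was 94.0 to 144 in mutants and 93.6 to 30134 in wild types, and its part in these values was not tested.

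Muscle held the largest genotype differences. Slc25a33 was at 7.85, 8.04, 7.80 and 7.92 in mutants, against 7.23, 7.48 and 7.52 in wild types. Every mutant lay above every wild type, and the difference was 0.49 (SE 0.11, limma adjusted p = 0.171). Slc25a5 was at 10.09, 9.98, 9.94 and 9.98 in mutants and at 10.33, 10.20 and 10.63 in wild types, a difference of -0.39 (SE 0.12, limma adjusted p = 0.336) without overlap. Wild type 3 was its highest array, and leaving out single libraries gave differences from -0.48 to -0.27.

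Slc25a10, which is abundant in white fat of mice, was at 5.25, 5.39, 5.33 and 5.17 in mutants, against 5.49, 6.00 and 7.22 in wild types. The difference was -0.95 (SE 0.32, limma adjusted p = 0.369), and wild type 3 stood far above the other wild types. Without wild type 3 it was -0.46. Slc25a1 was at 6.68, 5.77, 6.85 and 5.88 in mutants and at 7.00, 6.62 and 7.66 in wild types at its brighter probe. The groups overlapped (-0.80, SE 0.30, limma adjusted p = 0.441), and the other probe differed by -0.57 (SE 0.29). Slc25a29, a carrier of basic amino acids, was at 4.70, 5.10, 5.02 and 5.02 in mutants, against 4.43, 4.88 and 4.44 in wild types (0.37, SE 0.15, limma adjusted p = 0.464). It was detected on 4 of 4 mutant and 1 of 3 wild-type arrays. Slc25a1 and Slc25a29 were named after their values were seen, as the other members with an unadjusted p under 0.05.

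Fat cell transcripts differed between the muscle groups in the same direction as Slc25a10, Slc25a1 and Slc25a5. Adipoq, the adipocyte hormone adiponectin, was at 9.45, 8.54, 9.78 and 8.30 in mutants and at 10.41, 10.51 and 11.46 in wild types, a difference of -1.78 (SE 0.36, limma adjusted p = 0.125). Lep, the adipocyte hormone leptin, was at 5.66, 5.70, 6.22 and 5.50 in mutants and at 8.00, 8.71 and 8.95 in wild types. It fell by 2.78 on the log2 scale (SE 0.23, limma adjusted p = 0.00111), the 1 of 4 adipocyte markers tested that passed. The summed level of the 6 adipocyte markers was 465 to 1205 in mutants and 1907 to 4073 in wild types, with Retn and Fabp4 at background throughout. Ucp1, the uncoupling protein of brown fat, was detected in wild types 1 and 3 only, at 7.27 and 7.72, and the 5 brown fat markers summed to 108 to 139 in mutants and 133 to 607 in wild types. Of these markers, Elovl3, Dio2 and Prdm16 were detected on no muscle array. The sums of the slow fibre markers overlapped, at 1048 to 11393 in mutants and 1168 to 2822 in wild types. All 5 that were tested were higher in mutants (median difference 1.35), and 0 passed. With the Adipoq level as a covariate, the difference was -0.09 for Slc25a10, -0.18 for Slc25a5, 0.57 for the brighter Slc25a1 probe, 0.13 for Slc25a29 and 0.45 for Slc25a33. Without wild types 1 and 3, where 1 wild type remains, it was -0.70, -0.21, -0.32, 0.07 and 0.42 in the same order. Adipoq did not overlap between the genotypes, so fat content and genotype cannot be told apart by this covariate. The part of slow fibres was not tested.

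Slc25a25 varied most between muscles of 1 genotype. It was at 5.85, 7.30, 6.68 and 6.51 in mutants, against 6.26, 7.27 and 8.61 in wild types. The residual SD was 0.87, larger than that of 99.7% of the probes tested in muscle, and the genotypes overlapped (-0.79, SE 0.47, limma adjusted p = 0.684). Without wild type 3 the difference was -0.18. Next among the members were Slc25a10 (residual SD 0.57) and Slc25a1 (0.54 and 0.52), against a median of 0.195 over members and 0.171 over all probes. Wild type 3 was the highest array for Slc25a25, Slc25a10, both Slc25a1 probes and Slc25a5, among others. Slc25a25 was named after its spread was seen.

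**Figure D3:**
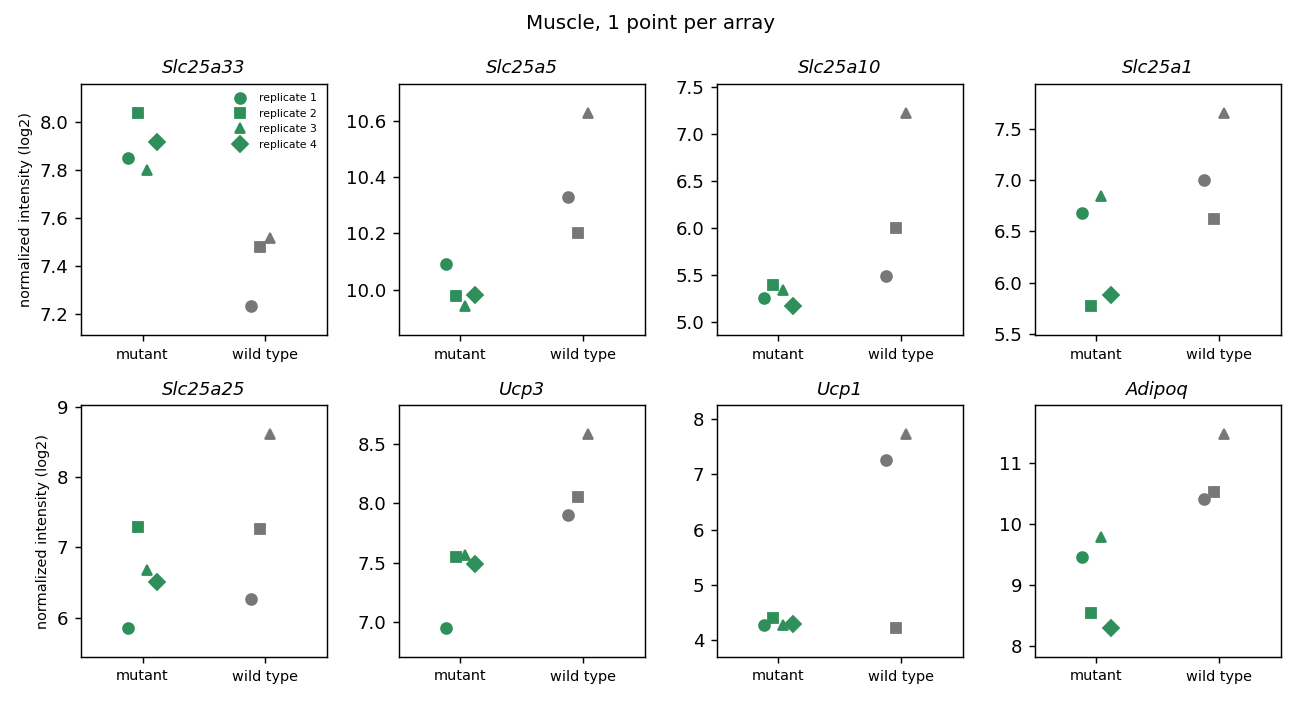
Normalized log2 intensity in muscle of 5 Slc25 genes and of Ucp3, Ucp1 and Adipoq, with 1 point per array, mutants on the left of wild types, each panel on its own axis. Wild type 3 is the highest array in the panels of Slc25a5, Slc25a10, Slc25a1, Slc25a25, Ucp3, Ucp1 and Adipoq. In the panel of Slc25a33 all mutants lie above all wild types.

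Among the related genes, Ucp3 was at 6.95, 7.55, 7.57 and 7.49 in mutant muscle, against 7.90, 8.05 and 8.58 in wild-type muscle. The groups did not overlap, and the difference was -0.79 (SE 0.19, limma adjusted p = 0.194). No gene of the shuttle enzymes, of the carrier import list (8, 11 and 9 genes kept in testis, brain and muscle) or of the other transport list (6, 9 and 9) passed in any tissue.

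**Figure D4:**
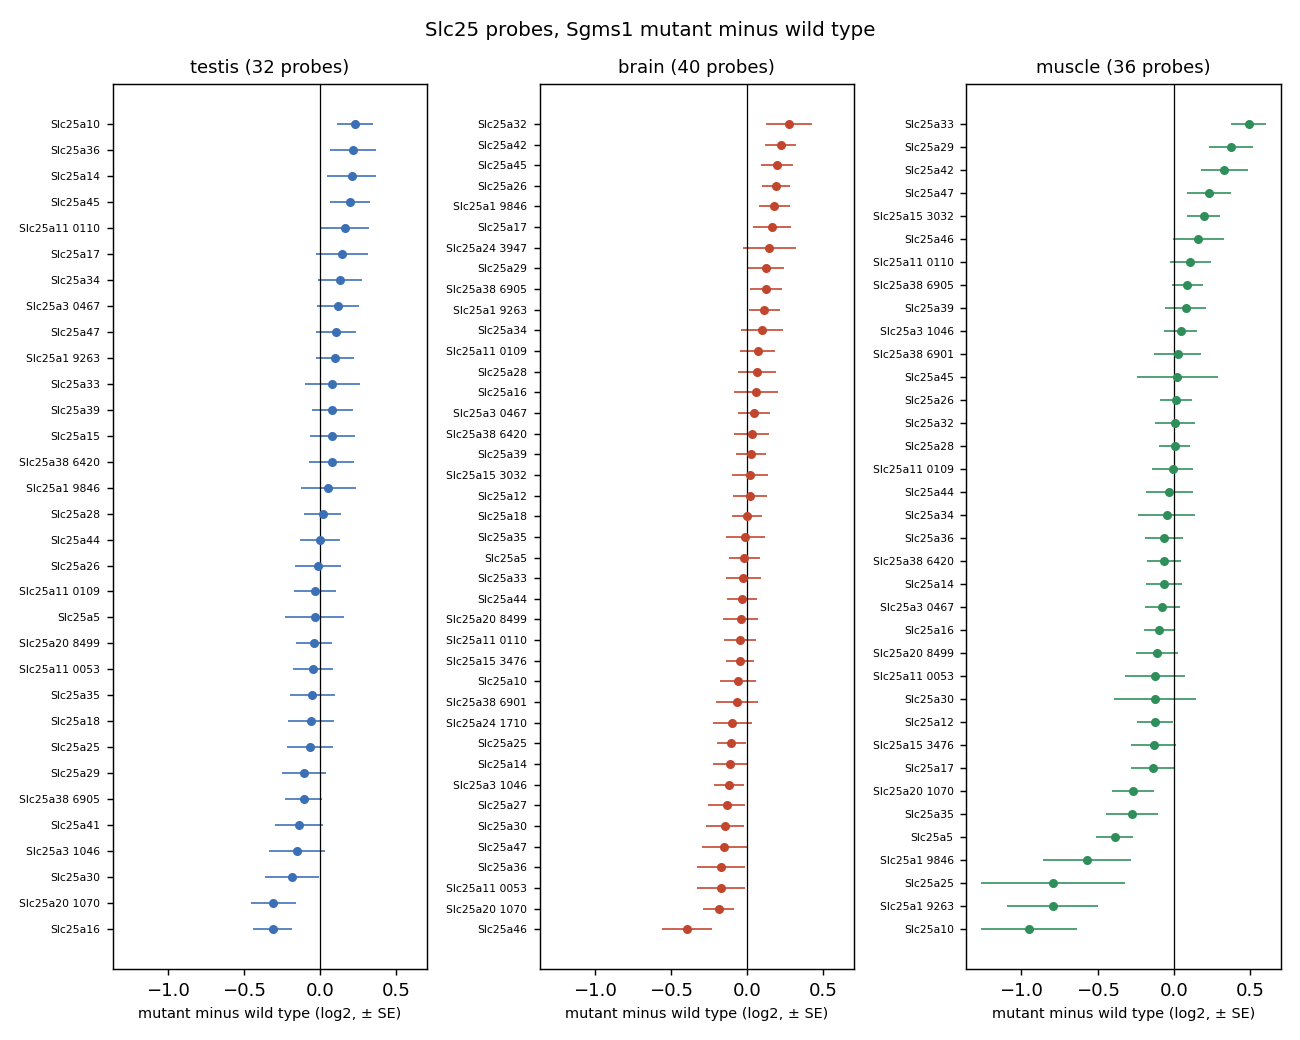
Difference of Sgms1 mutant minus wild type (log2, point) with its standard error (bar) for each Slc25 probe kept in testis, brain and muscle, ordered by size, with the last 4 digits of the probe name where a gene has several. No difference passed the threshold, and the widest spread is in muscle, where Slc25a33 is at 0.49 and Slc25a10 at -0.95.

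Whether the genotype difference itself differed between tissues was tested over the arrays normalized together. No member passed for testis minus brain (41 probes, against 0% of all probes passing), testis minus muscle (38 probes, against 0.368%) or brain minus muscle (40 probes, against 0.0124%). Slc25a10 had the smallest p, with a difference of 1.15 for testis minus muscle (SE 0.30, limma adjusted p = 0.112). It passed without muscle wild type 1 (limma adjusted p = 0.0102) and was 0.69 without muscle wild type 3. Slc25a16 was at -0.55 for testis minus brain (SE 0.20, limma adjusted p = 0.794), and Slc25a1 at 0.84 for brain minus muscle (SE 0.30, limma adjusted p = 0.723). Without the 2 doubtful brain libraries, an alternative chosen after seeing the data, these were -0.57 and 0.87, and no member passed.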

How the data were processed

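The authors deposited a table of non-normalized intensity values with a detection p-value for each of 25697 probes and 22 arrays, and a processed table of linear intensity values, some below 0, whose normalization neither labels nor header state. Per the labels' protocols, RNA was extracted with Trizol, cleaned with RNeasy and amplified with Ambion MessageAmp; per the submitters' processing notes, GenomeStudio 2011.1 was used. The processed table served only as an alternative. Gene names came from the platform annotation, and the RefSeq gene table held a match for each of the 57 Slc25 probes.

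Intensities were normalized in R 4.3.3 with the neqc function (limma 3.58.1; normexp, negative controls inferred from the detection p-value, offset 16, quantile normalization, log2). The genotype test (lmFit and eBayes) ran within each tissue over the probes kept, and tissues and interactions in 1 fit of 6 groups, all two-sided with Benjamini-Hochberg adjustment at 5%. "At least" folds take as floor, on each array, the lowest signal that was detected. The number of arrays limits the precision. Scripts were tested on simulated data.

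The members, lists and naming rule were chosen with earlier results of these data known. Values per array are given for members of smallest p per tissue, for members called highest in a tissue and for paralogue groups. Replicates were separate mice. Numbers shared by mutant and wild type did not pair the samples (correlations of deviations -0.01 to 0.20, different mice). Brain and muscle of a mouse are paired by the labels' mouse identity (0.02 to 0.18). Alternatives were no background correction, median scaling, joint normalization, the processed values, detection filters, blocks, trend and robust options, wild types only, a fold of 1.5 and leaving out libraries.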

Additional observations from a re-analysis of the deposited data

Results flagged for a closer look

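Sgms1 in the brain library labelled mutant 2 was at 8.14, far from the other brain mutants, which lay between 6.31 and 6.59. Its distance to the nearest of them, set against the range of the group, passed Dixon's limit for 4 samples. Chance gives such a value in about 1 in 20 groups. The search covered each group of 4 arrays for Sgms1 and for the members named in the genotype comparisons, so many groups were searched.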

How the results depend on the processing

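Without background correction, 13 Slc25 probes were called between testis and brain (24 with it), 12 between testis and muscle (23) and 8 between brain and muscle (18). A 1.5-fold minimum gave 28 calls between brain and muscle. Leaving out single libraries gave 24 to 26, 22 to 24 and 17 to 20 calls. With the mouse as a replicate block, random or fixed, the count for brain and muscle stayed at 18. No Slc25 probe passed between genotypes under any alternative in any tissue, the replicate block included (0 in each). The genotype effect of testis minus muscle gave 0 to 1 calls on leaving out single libraries. Median scaling turned testis over brain for Slc25a20 (-0.0034), Slc25a28 (-0.28) and Slc25a33 (-0.060), and the Adipoq covariate turned muscle Slc25a1 (0.60 at ILMN_2619846 and 0.57 at ILMN_2919263); the cause was not tested. Of 65 single tissue differences, 29 passed under every alternative and 33 missed the call under at least 1 without turning. A block on the slide was not run, since the tables give no slide. Signal over background limits, among others, Slc25a12, Slc25a27, Slc25a32 and Slc25a42 in testis, Slc25a41 in brain and muscle, Slc25a18 and Slc25a27 in muscle, and the 16 probes kept nowhere.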
